A study of Arabidopsis thaliana with 9 samples.

Results

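The INDETERMINATE DOMAIN (IDD) genes, also called BIRD genes, encode plant zinc finger transcription factors. The 10 genes described here were MGP, NUC, JKD, BIB, ENY, GAF1, IDD4, IDD5, IDD14 and SGR5. They were chosen by locus code as partners and targets of SHORT-ROOT (SHR) and SCARECROW (SCR). The rule uses no measured value, but earlier results of these data were known when the genes were chosen. All 10 were among the 20777 loci of the deposited table. The RNA came from the vegetative part of Arabidopsis thaliana Col-0 seedlings, grown on MS medium to stage 1.04, and was hybridised to ATH1 arrays. The 3 groups were the SHR mutant shr-5 (shr), the SCR mutant scr-3 (scr) and the wild type (WT), each with 3 biological repeats on an array of their own. Each mutant was represented by a single allele.

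IDD proteins bind DNA through a conserved block of zinc fingers and recruit or tether GRAS proteins, the family to which SHR, SCR and the DELLA repressors of gibberellin signalling belong. In the root, SHR moves from the stele into the neighbouring cell layer, where it acts with SCR in specifying the endodermis. JKD and BIB hold SHR in the nuclei of that layer and sustain SCR activity, and MGP and NUC are direct targets of SHR that also bind GRAS proteins. Other IDD proteins are known from shoots, for the gibberellin response, starch metabolism and the gravitropism of stems. The series title poses the question of how SHR and SCR act on leaf growth.

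Values are on the log2 scale of RMA, a procedure that normalises arrays to each other, so a difference of 1 is a 2-fold change. Over the whole table they lay between 2.90 and 14.03. Precision is limited by the number of arrays. Levels of single IDD genes were not compared with each other, since each gene has probes of its own. For the same reason, placing loci by level or mean value, as done for the markers below, is only rough. Among these arrays, shr replicate 3 stood apart: across loci, which are not independent replicates, it correlated with the others at r = 0.970 to 0.979, against 0.983 to 0.997 among the other 8. SHR transcript separated shr from WT arrays (4.70, 4.73 and 4.89 in shr, against 6.61, 6.57 and 6.81 in WT), whereas SCR transcript did not tell scr from shr arrays (7.60, 7.43 and 7.35 in shr, and 7.63, 7.44 and 7.13 in scr). SCR stood at 7.94 to 7.99 in WT, a scr minus WT difference of -0.57 (limma adjusted p = 0.110). Leaf markers fitted the labelled tissue, with the 4 measured of 7 between 12.66 and 13.86. Of 12 measured root markers, 11 were among the lower 40% of loci by mean value. The mean of the root list was 4.59 to 4.70 for shr, 4.65 to 4.76 for scr and 4.68 to 4.78 for WT.

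**Figure D1:**
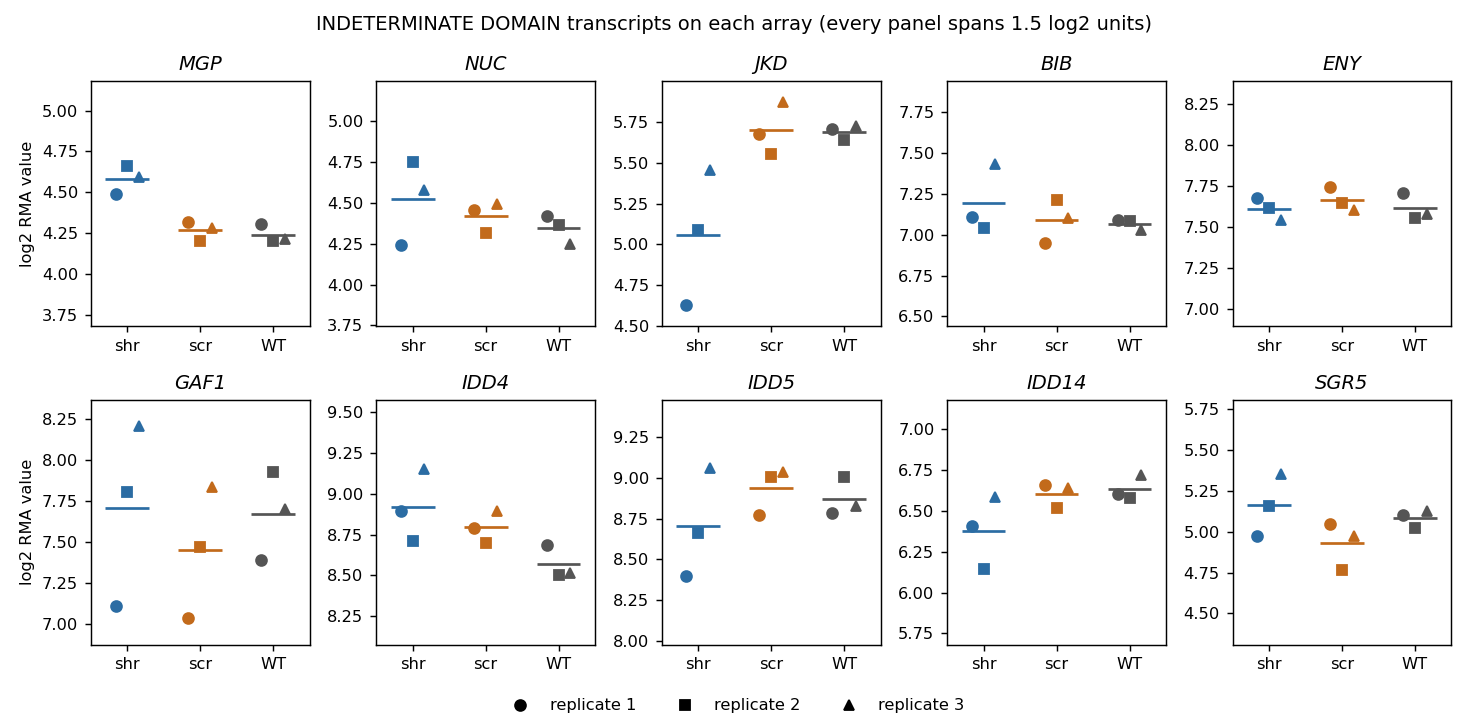
Log2 RMA values of the 10 IDD genes on each array, with shr (blue), scr (orange) and WT (grey) side by side. Symbols mark the replicate number and bars the mean of 3 arrays. MGP values were higher on all shr arrays than on any WT array, JKD values were lower on all shr arrays, and the GAF1 arrays of all 3 groups overlapped.

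MGP was the only IDD gene of the 10 to change at an adjusted p under 0.05, and it was higher in shr shoots. MGP (AT1G03840, MAGPIE) encodes a root ground tissue factor that binds both SHR and SCR and is transcribed under SHR control there. Its log2 value was 4.49, 4.66 and 4.59 for shr, 4.32, 4.20 and 4.28 for scr, and 4.30, 4.20 and 4.21 for WT. The 3 shr arrays lay above all 6 others, and the scr and WT arrays overlapped. Against WT, MGP rose in shr by 0.34 (SE 0.07, 95% interval 0.18 to 0.51, limma adjusted p = 0.0259), a 1.27-fold change. In whole shoots, a change in the number of cells of a type and a change in RNA per cell cannot be told apart, whether towards more or fewer cells or RNA. Its difference between scr and WT was 0.027 (interval -0.14 to 0.20, limma adjusted p = 0.947). Between shr and scr it was 0.32 (interval 0.15 to 0.48, limma adjusted p = 0.0774), so a difference between the mutants was not established. MGP was dim on all arrays, in the lower 40% of loci by mean value, and only 23.1% of loci had a lower mean. Whether MGP stood above background signal was not tested. Leaving out shr replicate 2 ended the call (limma adjusted p = 0.0774), as did leaving out WT replicate 1, 2 or 3 (limma adjusted p = 0.0519, 0.0955 and 0.0910), and it was kept without shr replicate 3 (0.34, adjusted p = 0.0330).

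JKD had the largest difference of the 10 genes, towards lower values in shr, but did not pass the threshold. JKD (AT5G03150, JACKDAW) encodes the factor that in roots restricts SHR movement and keeps SCR active. Its log2 value was 4.63, 5.09 and 5.46 for shr, 5.68, 5.55 and 5.87 for scr, and 5.71, 5.64 and 5.73 for WT. All 3 shr arrays lay below all 6 others, though shr replicate 3 came within 0.10 of scr replicate 2. Like MGP, JKD was in the lower 40% of loci by mean value, though less dim, with 37.5% of loci having a lower mean. The shr minus WT difference was -0.63 (SE 0.18, 95% interval -1.04 to -0.22, limma adjusted p = 0.0673), a level 1.55-fold lower in shr. The SD over the 3 arrays was 0.41 in shr, against 0.047 in WT. Without shr replicate 3 the difference was -0.83 (limma adjusted p = 0.00478), which passed, and without shr replicate 1 it was -0.42 (limma adjusted p = 0.173). With arrays shifted to a common median it was -0.69 and passed as well (limma adjusted p = 0.0485). Against scr, JKD in shr differed by -0.64 (limma adjusted p = 0.123), or by -0.84 without shr replicate 3 (limma adjusted p = 0.0144). In scr against WT the difference was 0.011 (interval -0.40 to 0.42), so that a change in scr of the size seen in shr lay outside the interval.

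NUC and BIB complete the root ground tissue genes, and neither differed beyond the spread between arrays. NUC (AT5G44160, NUTCRACKER, also IDD8) encodes a target of SHR and SCR that has been linked to sugar metabolism and flowering time as well. NUC was 4.24, 4.75 and 4.58 for shr, 4.46, 4.31 and 4.49 for scr, and 4.42, 4.37 and 4.25 for WT. Its shr arrays spanned the whole range of the other 6, with the lowest value of all 9 on shr replicate 1. Its differences from WT were 0.18 in shr (SE 0.12, limma adjusted p = 0.419) and 0.075 in scr (limma adjusted p = 0.899). BIB (AT3G45260, BALDIBIS), which acts with JKD in the root, was 7.11, 7.04 and 7.43 for shr, 6.95, 7.21 and 7.11 for scr, and 7.09, 7.08 and 7.03 for WT. The groups overlapped, and shr replicate 3 held the highest value. BIB differed from WT by 0.13 in shr (interval -0.12 to 0.38, limma adjusted p = 0.527) and by 0.024 in scr (interval -0.23 to 0.28, limma adjusted p = 0.968).

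ENY and GAF1, which encode partners of DELLA proteins in the gibberellin response, differed most in how far their arrays scattered. ENY (AT5G66730, ENHYDROUS, also IDD1), known for its part in seed maturation and germination, was 7.68, 7.62 and 7.54 for shr, 7.74, 7.65 and 7.61 for scr, and 7.71, 7.56 and 7.58 for WT. All 9 ENY values lay within 0.20, the smallest range of the 10 genes. Its intervals against WT, -0.18 to 0.17 in shr and -0.12 to 0.22 in scr, were with those of MGP the narrowest of the family. GAF1 (AT3G50700, also IDD2), a factor for which DELLA proteins act as coactivators, was 7.11, 7.80 and 8.21 for shr, 7.04, 7.47 and 7.84 for scr, and 7.39, 7.93 and 7.70 for WT. Replicate 1 was the lowest in each of the 3 genotypes. The same held for IDD5, making 2 of the 10 genes, against 7.01% of all loci. GAF1 differed from WT by 0.036 in shr (interval -0.62 to 0.69, limma adjusted p = 0.955) and by -0.22 in scr (interval -0.88 to 0.43, limma adjusted p = 0.861). With intervals this wide, a change of the size seen for MGP was not detectable in GAF1.

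IDD4 and IDD5, neighbouring genes on chromosome 2 in the gene order of the assembly TAIR10.1, had differences of opposite sign in shr, and neither passed the threshold. IDD4 has been linked to growth and immune responses, and IDD5 to starch synthesis in leaves. IDD4 (AT2G02080) was 8.89, 8.71 and 9.15 for shr, 8.79, 8.70 and 8.90 for scr, and 8.69, 8.50 and 8.52 for WT. Both mutants lay above WT on every array, by a narrow margin in the closest pairs. IDD4 differed from WT by 0.35 in shr (SE 0.12, limma adjusted p = 0.102) and by 0.23 in scr (limma adjusted p = 0.537). IDD5 (AT2G02070) was 8.40, 8.66 and 9.06 for shr, 8.77, 9.005 and 9.04 for scr, and 8.79, 9.004 and 8.83 for WT. The shr arrays of IDD5 held the 2 lowest values and also the highest. Its differences from WT were -0.17 in shr (limma adjusted p = 0.569) and 0.066 in scr (limma adjusted p = 0.936), and without shr replicate 3 that in shr was -0.34 (limma adjusted p = 0.0935). The sources used here do not say how probes were assigned to these neighbours.

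IDD14 and SGR5 encode related factors that act on the gravitropism and shape of shoot organs, and IDD14 also on starch metabolism in the cold. IDD14 (AT1G68130) was 6.41, 6.14 and 6.59 for shr, 6.66, 6.52 and 6.64 for scr, and 6.60, 6.58 and 6.72 for WT. On shr replicate 3 it overlapped with WT, and the other shr arrays lay below all others. The shr minus WT difference was -0.26 (SE 0.11, limma adjusted p = 0.195), and -0.36 without shr replicate 3 (limma adjusted p = 0.0443), which passed. In scr it differed from WT by -0.029 (limma adjusted p = 0.964). SGR5 (AT2G01940, SHOOT GRAVITROPISM 5, also IDD15) was 4.97, 5.16 and 5.36 for shr, 5.05, 4.76 and 4.98 for scr, and 5.10, 5.02 and 5.12 for WT, with overlap between all groups. It differed from WT by 0.080 in shr (limma adjusted p = 0.716) and by -0.15 in scr (limma adjusted p = 0.697).

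**Figure D2:**
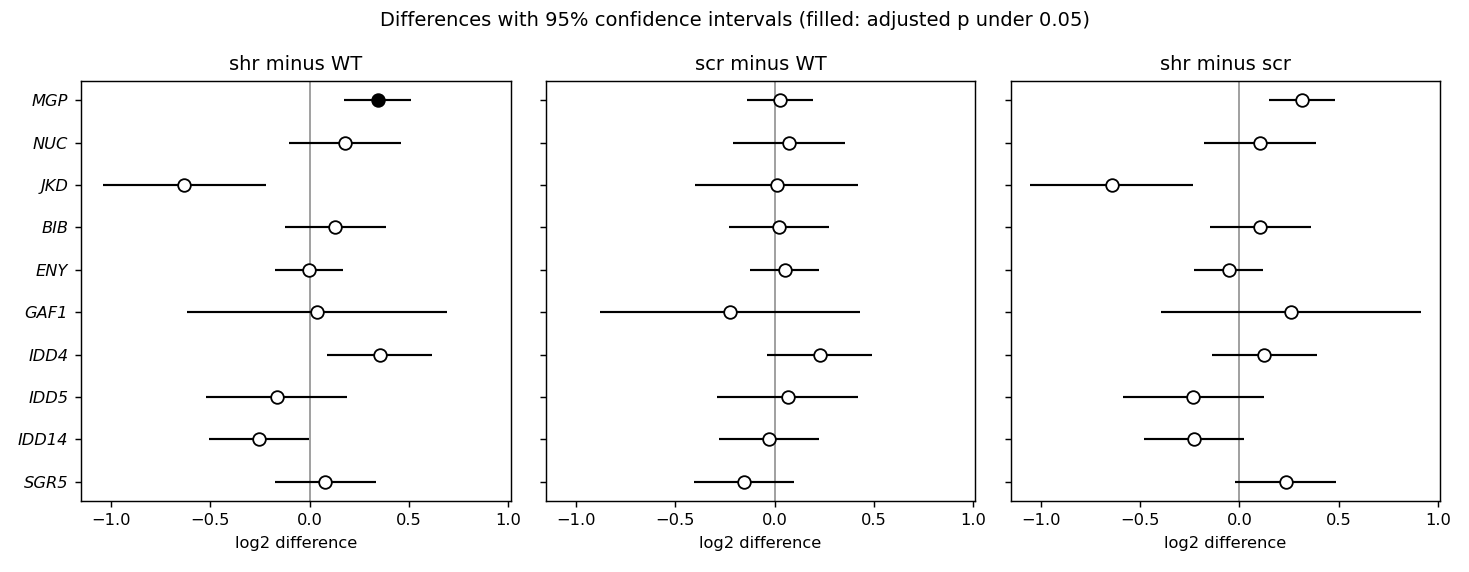
Log2 differences of the 10 IDD genes (points) with 95% confidence intervals (lines), for shr minus WT, scr minus WT and shr minus scr. The filled point, MGP in shr minus WT at 0.34, is the only difference past an adjusted p of 0.05, and JKD lies lowest in both comparisons of shr.

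The counts of IDD genes past each threshold are set beside the share of all loci that passed it. In shr against WT, 1 of 10 passed (limma, adjusted p under 0.05), with MGP higher, against 8.14% of all loci (4.35% of all loci were higher and 3.79% were lower). Without adjustment, at a limma p under 0.05, MGP and IDD4 were higher, 2 of 10 against 12.4% of all loci, and JKD and IDD14 lower, 2 of 10 against 12.2%. Both directions together made 4 of 10, against 24.6%. The arrays of shr and WT did not overlap for 3 of the 10, against 29.3% of all loci. MGP and IDD4 were those that lay higher, 2 of 10 against 14.3%, and JKD lay lower, 1 of 10 against 15.1%. The median difference was 0.058 over the 10 genes and -0.012 over all loci, and the median size regardless of sign was 0.17 and 0.14.

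In scr against WT, 0 of 10 IDD genes passed, against 0.366% of all loci, 0.236% higher and 0.130% lower. At an unadjusted limma p under 0.05 there were 0 of 10, against 11.0% of all loci, 5.28% higher and 5.71% lower. IDD4 alone had scr arrays apart from WT, and higher, 1 of 10 against 11.5% of all loci, with 10.6% lower and 22.0% in either direction. The median size of a difference was 0.059 for the 10 genes and 0.093 for all loci. In shr against scr, 0 of 10 passed, against 1.34% of all loci, 0.765% higher and 0.578% lower. At an unadjusted limma p under 0.05 MGP was higher, 1 of 10 against 8.45% of all loci, and JKD lower, 1 of 10 against 8.24%, or 2 of 10 against 16.7% in either direction. These 2 genes were also those whose shr and scr arrays did not overlap, against 21.0% of all loci, 10.2% higher and 10.8% lower.

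The shr arrays of the IDD genes scattered more than the WT arrays. The SD was larger in shr than in WT for 9 of 10 genes, all but ENY, against 65.6% of all loci, and the median SD of the 10 genes was 0.22 in shr, 0.12 in scr and 0.079 in WT. Over all loci these medians were 0.13, 0.10 and 0.096. On shr replicate 3 the highest of the 3 shr values was found for 7 of the 10 genes, JKD, BIB, GAF1, IDD4, IDD5, IDD14 and SGR5, against 40.5% of all loci. These shares are descriptions of 9 arrays and were not tested.

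Among the remaining IDD genes of the family, only AT1G14580 passed the threshold between the mutants, and most fits without 1 array lost that call. Of 6 measured, 4 have symbols in the reference table (IDD7, IDD11, IDD12 and IDD16), and AT1G14580 and AT5G60470 were placed in the list from general knowledge of the family. AT1G14580 was 7.55, 7.28 and 7.02 for shr, 8.05, 7.96 and 7.86 for scr, and 7.65, 7.78 and 7.66 for WT. All shr arrays lay below WT and all scr arrays above it. In shr against scr AT1G14580 fell by 0.67 (SE 0.12, limma adjusted p = 0.0416), 1 of 6 genes lower and none higher, against 0.578% and 0.765% of all loci. Against WT its differences were -0.41 in shr (limma adjusted p = 0.0798) and 0.26 in scr (limma adjusted p = 0.506), and these comparisons share their WT arrays. The call between the mutants held in 2 of the 9 fits that left out 1 array, those without shr replicate 1 or 3, with adjusted p-values up to 0.134 in the others. It was lost as well with only the groups compared (limma adjusted p = 0.147). None of the 6 passed against WT in either mutant, against 8.14% of all loci in shr and 0.366% in scr. At an unadjusted p under 0.05 there were 2 of 6 in shr, AT1G14580 and IDD11, against 24.6% of all loci, and 0 of 6 in scr, against 11.0%.

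**Figure D3:**
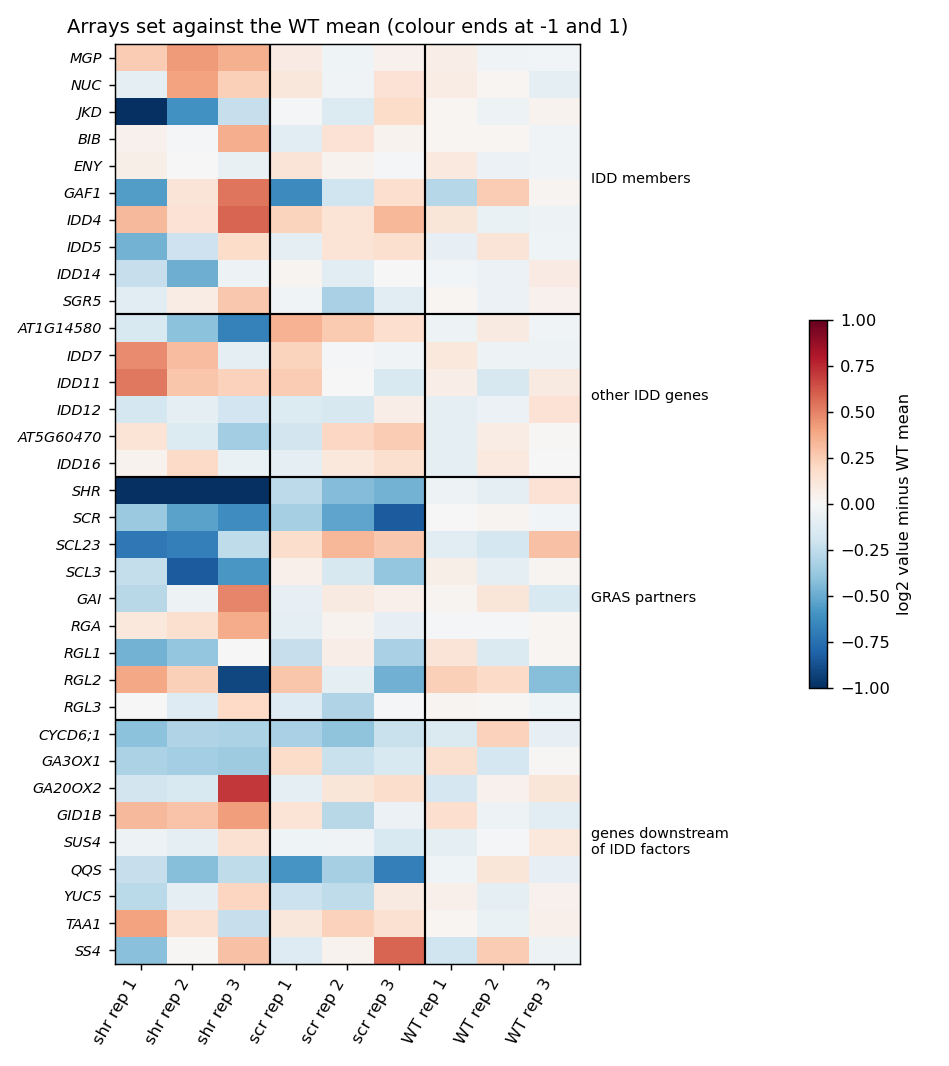
Log2 values minus the WT mean for the IDD genes, their GRAS partners and genes known to act downstream of IDD factors (rows) on the 9 arrays (columns), from blue at -1 to red at 1, where the colour ends. Within the IDD genes the darkest blue belongs to JKD on shr replicate 1, and SHR on all shr arrays lies beyond the end of the scale.

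Among the 9 GRAS genes whose proteins IDD factors bind, 2 fell in shr against WT and none rose, against 3.79% of all loci lower and 4.35% higher. These were SHR, by 1.89 (limma adjusted p = 2.87e-05), and SCR, by 0.51 (limma adjusted p = 0.0399). SHR is the gene mutated in shr, so the counts here and in shr against scr include the mutated gene itself. In shr against scr, SHR and SCL23 fell, 2 of 9 against 0.578% of all loci. SCL23 (AT5G41920), a GRAS gene close to SCR that acts in the bundle sheath of leaves, was 5.69, 5.72 and 6.15 for shr, 6.58, 6.74 and 6.68 for scr, and 6.29, 6.23 and 6.70 for WT. It fell by 0.81 in shr against scr (SE 0.15, limma adjusted p = 0.0455), with a shr minus WT difference of -0.55 (limma adjusted p = 0.0621). Of the 9 fits that left out an array, 2 kept the call of SCL23 (without shr replicate 3 or WT replicate 3) and 3 that of SCR (without shr replicate 1 or scr replicate 1 or 3), with adjusted p-values up to 0.158 and 0.126 in the others. The SCL23 call was also lost with only the groups compared (limma adjusted p = 0.0916). None of the 5 DELLA genes passed in any comparison, against 8.14% of all loci in shr against WT and 1.34% in shr against scr. In scr against WT 0 of the 9 GRAS genes passed, against 0.366% of all loci. SHR and SCR were lower there at an unadjusted limma p under 0.05, 2 of 9 against 5.71%, a count that includes SCR, the gene mutated in scr.

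Of the genes known to act downstream of IDD factors, 9 are given here, and 0 of the 9 passed the threshold in any of the 3 comparisons. The share of all loci that passed was 8.14% in shr against WT, 0.366% in scr against WT and 1.34% in shr against scr. At an unadjusted limma p under 0.05, 1 was higher, against 12.4% of all loci, and 3 were lower, against 12.2%, in shr against WT. The higher one was GID1B, a gibberellin receptor gene, with a shr minus WT difference of 0.34 (limma adjusted p = 0.111) and a shr minus scr difference of 0.41 (limma adjusted p = 0.129). The 3 lower ones were CYCD6;1, a cyclin gene under SHR and SCR in the root, at -0.34 (limma adjusted p = 0.0834), GA3OX1, a gene of gibberellin synthesis, at -0.34 (limma adjusted p = 0.128), and QQS, a starch-related gene downstream of IDD14, at -0.30 (limma adjusted p = 0.126). In scr against WT, QQS and CYCD6;1 were lower at an unadjusted limma p under 0.05, 2 of 9 against 5.71% of all loci. Their scr minus WT differences were -0.53 for QQS (limma adjusted p = 0.0891) and -0.32 for CYCD6;1 (limma adjusted p = 0.285). In shr against scr, GID1B alone of the 9 had an unadjusted limma p under 0.05, against 16.7% of all loci. GID1B, CYCD6;1 and QQS were dim, in the lower 40% of loci by mean value, and GA3OX1 was not.

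**Figure D4:**
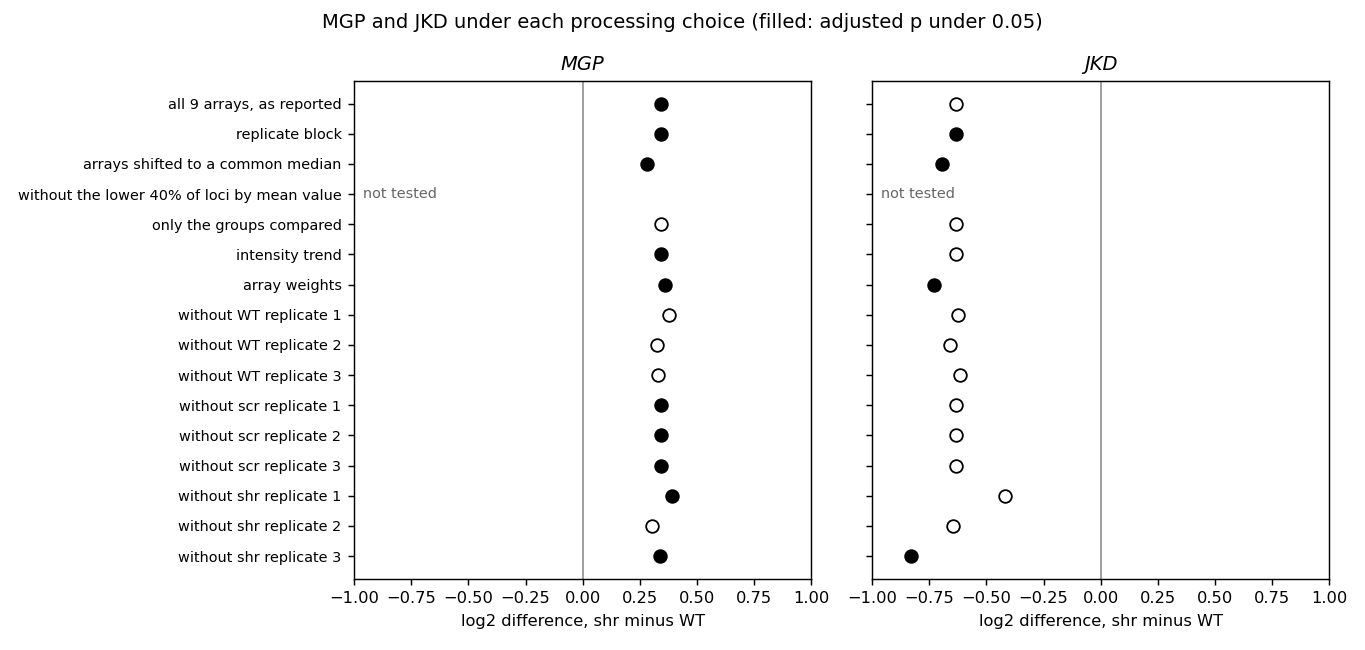
Shr minus WT log2 difference of MGP (left) and JKD (right) under each processing choice, with filled points where the limma adjusted p was under 0.05. All MGP values lie right of 0 and all JKD values left of it, and leaving out shr replicate 3 gives the lowest JKD value, -0.83.

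Some markers of meristem and vascular tissue passed the threshold between shr and WT arrays, and none of leaf mesophyll did. The mean of the 4 leaf mesophyll markers was 13.13 to 13.30 for shr, 13.29 to 13.41 for scr and 13.37 to 13.41 for WT. In shr against WT, 3 of these 4 had shr arrays below all WT arrays, against 15.1% of all loci. None passed, against 4.35% of all loci higher and 3.79% lower. CA1 was at -0.30 (limma adjusted p = 0.0816) and GAPB at -0.31 (limma adjusted p = 0.0824). The mean of 6 shoot meristem markers was 5.01 to 5.03 for shr, 4.74 to 4.90 for scr and 4.63 to 4.72 for WT. Of these STM and KNAT1 rose in shr against WT, 2 of 6 against 4.35% of all loci. They rose by 0.79 (limma adjusted p = 0.0121) and 1.26 (limma adjusted p = 0.00251), and kept their calls in all 9 fits without 1 array. The other 4, CUC2, CUC3, CLV3 and WUS, had differences between -0.078 and 0.033 and overlapped with WT, and the median over the 6 was 0.025. The mean of 8 vascular markers was 7.60 to 7.67 for shr, 7.35 to 7.52 for scr and 7.42 to 7.45 for WT. There SUC2 and CESA7 rose in shr against WT, 2 of 8 against 4.35% of all loci, and XCP1 fell, 1 of 8 against 3.79%. In that order, the calls held in 4, 2 and 1 of the 9 fits without 1 array. With all arrays kept, the calls of SUC2 and CESA7 ended with the replicate block (limma adjusted p = 0.0606 and 0.0730), at a common median (0.0532 and 0.0679) and with only the groups compared (0.0880 and 0.105). CESA7 and XCP1 also lost theirs with an intensity trend (limma adjusted p = 0.0619 and 0.0554), and XCP1 with only the groups compared (0.106). The part of these tissues in the MGP and JKD values was not tested.

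The loci closest in profile to MGP over the 9 arrays were also high in shr. Likeness was measured as the root mean square difference between profiles, each set against its own WT mean, and the 5 closest loci were AT1G73380 (0.044), AT3G45620 (0.049), ACBP6 (0.052), IPK2BETA (0.052) and AT1G70770 (0.055). All 5 rose in shr against WT, by 0.31, 0.30, 0.30, 0.33 and 0.30 in that order, as their selection for likeness to MGP entails. For scale, the MGP profile itself lay 0.21 from a flat line at its WT mean. Leaving out 1 array kept between 1 and 5 of these 5 loci among the closest.

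**Figure D5:**
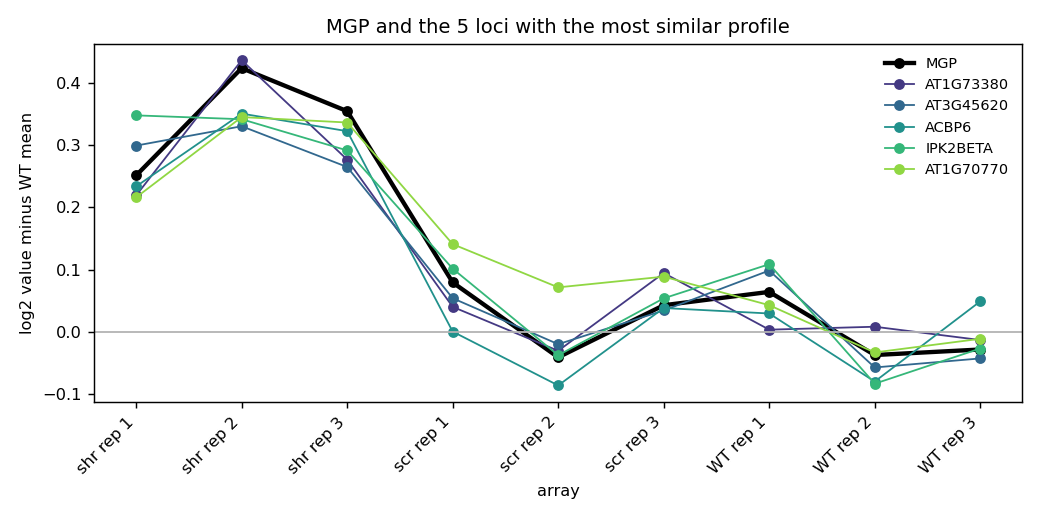
Log2 values minus the WT mean for MGP (thick black line) and the 5 loci with the closest profiles (thin lines) on the 9 arrays; lines join the values of a locus and carry no order. All 6 profiles are highest on the shr arrays.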

How the data were processed

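The authors processed the arrays with RMA, per the submitters' processing notes, and deposited log2 values, 1 per locus. Of the RMA version, the assignment of probes to loci and filtering, the sources used here say nothing. That the unit is log2 was read from the range of the values. Groups and replicate numbers came from the sample titles. Loci were named from the TAIR10.1 gene table of RefSeq, in which 20508 of 20777 loci matched. BIB is named as in the given member list.

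Differences were fitted with limma 3.58.1 in R 4.3.3 on all 9 arrays, with a mean per genotype and no filter. The two-sided p-values were adjusted by Benjamini and Hochberg's method over 20777 loci, at a threshold of 0.05. The procedure was tested on simulated data. The members and all gene lists were chosen with earlier results of these data known. All 10 member loci are named, with SHR, SCR, each locus of the other lists past the threshold, and the 5 loci closest in profile to a member past it. IDD11, GID1B, GA3OX1, CYCD6;1, QQS and the tissue markers were named after their values were seen. A further gene of the downstream list is not reported here, so the counts given for that list do not cover all of it.

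Deviations from the group means correlated at 0.277, 0.138 and 0.107 between scr and WT arrays of equal number. Arrays of unequal number were not compared, so pairing was not established. The reported fit did not pair arrays, and the replicate number entered only as a block in an alternative. In the comparisons of shr not every such correlation was positive. Between shr and WT arrays they were 0.204, -0.106 and 0.0994. Between shr and scr arrays they were 0.444, -0.0448 and 0.335. Alternatives were a replicate block, a common median, a filter on dim loci, fits of the compared groups alone, an intensity trend, array weights and leaving out each array. For loci outside the 10 genes these were added after seeing the data.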

Additional observations from a re-analysis of the deposited data

How the results depend on the processing

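In shr against WT the count of IDD genes past the threshold, 1 with all arrays, was 2 with the replicate block and with arrays shifted to a common median, 3 with array weights, and 0 with only the groups compared. It was also 0 without the lower 40% of loci by mean value, a filter that removes MGP, NUC, JKD and SGR5, so MGP and JKD could not be tested there. It ranged from 0 to 3 without 1 array. MGP with the replicate block was 0.34 (limma adjusted p = 0.0496) and JKD -0.63 (limma adjusted p = 0.0486), and this fit changed no other call of the 10 genes. In shr against scr the count was 1 with array weights and 0 to 1 without 1 array. In scr against WT it was 0 in all 15 alternatives. JKD and IDD14 passed in shr against WT, and JKD in shr against scr, both with array weights and without shr replicate 3. The other results that changed sign passed the threshold in none of these fits. JKD in scr was -0.0078 at a common median and -0.074 to 0.084 without 1 array. BIB and IDD14 in scr ran from -0.038 to 0.093 and from -0.056 to 0.016 without 1 array. In shr against WT, ENY was 0.017 with array weights and -0.035 to 0.045 without 1 array, GAF1 was -0.027 at a common median, -0.064 with array weights and -0.21 to 0.33 without 1 array, and SGR5 ran from -0.017 to 0.17 without 1 array. In shr against scr, BIB was -0.0025 with array weights and -0.013 to 0.18 without 1 array, and NUC ran from -0.0073 to 0.24 without 1 array. The cause of these changes was not tested. Of the 168 values of single IDD genes under alternatives other than leaving out 1 array, 157 kept direction and side of the threshold, as did 250 of the 270 without 1 array. The 270 include fits without an array of the group not compared, in which the difference cannot move and only its p-value can. With 3 arrays a group, the spread between arrays set which differences passed: in shr against WT, IDD4 at 0.35 (SE 0.12) did not, and MGP at 0.34 (SE 0.07) did.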
